A study of Canis lupus familiaris with 10 samples.

Results

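CD5L (ENSCAFG00000016447), MARCO (ENSCAFG00000004913), OLR1 (ENSCAFG00000013495) and DNASE1L3 (ENSCAFG00000007419) are 4 genes that macrophages and related scavenger cells are known to express, and they are 4 of the 31897 genes for which a level was deposited. They were chosen by the study's list of 20 genes with the largest changes after circumferential pulmonary vein ablation (CPVA). That list was selected on the difference between the CPVA and control groups in these same libraries. Their difference between the groups is therefore given below as a description, with no test, and supports nothing. All 4 genes passed the filter on low values, a mean of at least 0.1 FPKM over the 10 libraries. In the 8 libraries without CPVA2 and CPVA3 the mean was 0.113 FPKM for MARCO, 0.449 for DNASE1L3, 0.0763 for CD5L and 0.0347 for OLR1, so CD5L and OLR1 passed only through CPVA2 and CPVA3.

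Macrophages clear oxidised lipids, microbes and cell remains through scavenger receptors, a mixed group of surface proteins that bind negatively charged ligands. MARCO is such a receptor with a collagen-like stalk, and OLR1 (also called LOX-1) is a lectin-like receptor of oxidised low-density lipoprotein on endothelial cells, macrophages and smooth muscle cells. CD5L (also called AIM) is secreted by tissue macrophages, circulates bound to immunoglobulin M and acts on the lipid metabolism of the cells that take it up. DNASE1L3 is a secreted nuclease that degrades DNA in chromatin and in vesicles from dying cells, and it is made by dendritic cells, macrophages and some endothelial cells. MARCO and CD5L share a scavenger receptor cysteine-rich domain, while OLR1 and DNASE1L3 belong to other protein families. In the RefSeq gene order of the dog assembly UU_Cfam_GSD_1.0, matched by symbol, CD5L stood next to FCRL1, OLR1 next to CLEC7A, MARCO between C1QL2 and EN1, and DNASE1L3 next to ABHD6.

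The libraries came from target atrial muscle of 10 beagles, taken 6 months after surgery. The paper defines this target by its distance from the ablation line, which the control group did not have. In the CPVA group (n = 5), thoracotomy on the right side was followed by ablation along the root of the left pulmonary vein; the control group (n = 5) had the thoracotomy alone. Animals of either sex were used, and their age is not stated in the sources used here. No genetic change or drug was part of either group. Each library was labelled as 1 sample of its group, and between 15120163 reads (CPVA3) and 25592249 reads (CPVA2) were counted on genes. CPVA2 and CPVA3 stood apart from the other 8 libraries for these 4 genes and for many others, so results are given with and without them. Genes are given in the table by identifier alone, and only the genes of the study's list are named by symbol. Markers of atrial muscle, macrophages and other cell types could therefore not be checked here.

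The unit is FPKM, the fragments counted on a gene per kilobase of its length and scaled to the fragments counted in the library, so levels can be compared between genes. The values kept full precision, and the whole reads and lengths behind them were worked out: 2034 bases for CD5L, 1490 for MARCO, 2550 for OLR1 and 1170 for DNASE1L3. A single read was worth 0.0192 to 0.0325 FPKM for CD5L, 0.0262 to 0.0444 for MARCO, 0.0153 to 0.0259 for OLR1 and 0.0334 to 0.0565 for DNASE1L3, depending on the library. Intervals are exact 95% intervals of the reads (Poisson for a level, binomial for a ratio) and cover counting error only, since reads copied by PCR are not separate molecules. In bulk tissue, fewer cells of a type and less RNA per cell cannot be told apart.

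MARCO had the highest level of the 4 genes in both CPVA2 and CPVA3. Its FPKM in CPVA1 to CPVA5 was 0, 58.1, 237, 0.0336 and 0.150, and in Control1 to Control5 it was 0.256, 0.323, 0.0787, 0.0657 and 0. The corresponding reads were 0, 2214, 5343, 1 and 5 in the CPVA group and 8, 11, 3, 2 and 0 in the control group. CPVA3 and CPVA2 were far above the rest, and the 3 other CPVA libraries lay within the range of the control group. Where MARCO had 0 reads, a floor of 3 reads is worth 0.0988 FPKM in CPVA1 and 0.101 FPKM in Control5, and the exact interval reaches 0.121 and 0.124 FPKM.

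OLR1, the other receptor of the 4, had the lowest level of them in CPVA2 and CPVA3. Its FPKM was 0, 11.9, 49.98, 0.0196 and 0.140 in CPVA1 to CPVA5, from 0, 778, 1927, 1 and 8 reads. In Control1 to Control5 it was 0, 0.0686, 0.0306, 0.0192 and 0 FPKM, from 0, 4, 2, 1 and 0 reads. CPVA5, with 8 reads, was above each control library, while CPVA1 and CPVA4 were not. Its interval of 0.0604 to 0.276 FPKM overlapped that of each control library.

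CD5L, the secreted protein of macrophages, had 0, 51.3, 195, 0.147 and 0.110 FPKM in CPVA1 to CPVA5, from 0, 2671, 6007, 6 and 5 reads. In Control1 to Control5 it had 0.0702, 0.0645, 0, 0.144 and 0.0742 FPKM, from 3, 3, 0, 6 and 3 reads. CPVA4 and Control4 had the same 6 reads, so the groups overlapped outside CPVA2 and CPVA3. In CPVA1 and Control3, where CD5L had 0 reads, a floor of 3 reads is worth 0.0724 and 0.0576 FPKM, and the exact interval reaches 0.0890 and 0.0709 FPKM.

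DNASE1L3, the secreted nuclease, was the only one of the 4 genes with reads in all 10 libraries. It had 0.461, 33.7, 140.8, 0.983 and 0.114 FPKM in CPVA1 to CPVA5, from 11, 1008, 2491, 23 and 3 reads. In Control1 to Control5 it had 0.122, 0.560, 0.301, 0.753 and 0.301 FPKM, from 3, 15, 9, 18 and 7 reads. The lowest level of all, in CPVA5, and the third highest, in CPVA4, were both in the CPVA group.

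**Figure D1:**
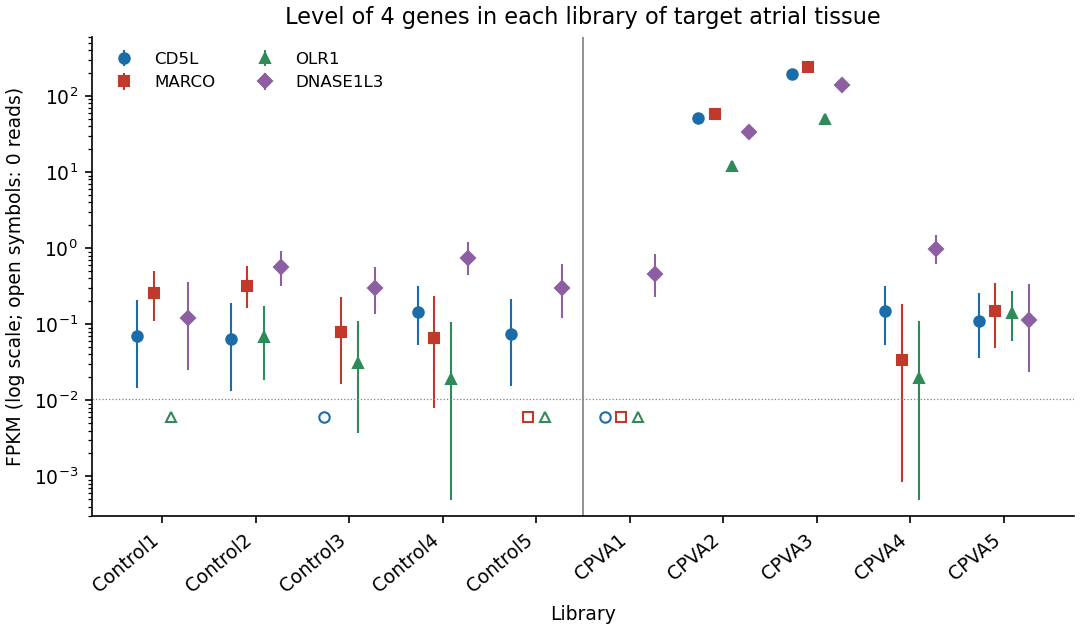
FPKM (log axis) of CD5L, MARCO, OLR1 and DNASE1L3 in each of the 10 libraries, with exact 95% Poisson intervals as bars; open symbols below the dotted line mark 0 reads and have no height. CPVA2 and CPVA3 sit between 11.9 and 237 FPKM for the 4 genes, and no other library is above 0.983 FPKM.

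For each of the 4 genes, CPVA3 was first and CPVA2 second among the 10 libraries. Their intervals overlapped neither each other nor those of the other 8 libraries. The genes were selected on the difference between the groups, so nothing is read from this order or from the lack of overlap. By level alone, both libraries were above each of the other 8 for 3261 of 19222 genes (17.0%). The share of all genes without overlap of intervals was not worked out. CPVA2 was 348 times the third library for CD5L, 180 times for MARCO, 85.2 times for OLR1 and 34.3 times for DNASE1L3. Together, CPVA2 and CPVA3 held 99.7% of all reads of CD5L, 99.6% of those of MARCO, 99.4% of those of OLR1 and 97.5% of those of DNASE1L3. By FPKM within the library, MARCO ranked 310, CD5L 384, DNASE1L3 565 and OLR1 1672 among the 31897 genes in CPVA3. Their ranks in CPVA2 were 1168, 1332, 2151 and 5560. In the other 8 libraries, the best rank reached by any of the 4 was 13905, by DNASE1L3 in CPVA4. The 4 genes together had 15768 reads in CPVA3 and 6671 in CPVA2, against 10 to 33 in each other library.

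In the CPVA group, MARCO had 59.1 ± 102.7 FPKM, CD5L 49.4 ± 84.5, DNASE1L3 35.2 ± 60.8 and OLR1 12.4 ± 21.6, and in the control group these genes had 0.145 ± 0.137, 0.0706 ± 0.0512, 0.407 ± 0.248 and 0.0237 ± 0.0283 FPKM (SD, n = 5 each). For each gene, the CPVA mean was smaller than the SD around it. The median of the CPVA group was 0.147 FPKM for CD5L, 0.150 for MARCO, 0.140 for OLR1 and 0.983 for DNASE1L3. On log2(FPKM + 0.1), the fitted difference between CPVA and control was 3.75 (standard error 1.97) for CD5L, 3.33 (2.08) for MARCO, 3.20 (1.62) for OLR1 and 2.98 (1.58) for DNASE1L3. Without CPVA3 it was 2.13, 1.64, 1.83 and 1.66, and without CPVA2 it was 2.61, 2.14, 2.34 and 2.18. Leaving out a CPVA library in which the genes were low raised it, to 4.86, 4.44, 4.07 and 3.65 without CPVA1, 4.54, 4.33, 4.01 and 3.42 without CPVA4, and 4.60, 4.11, 3.76 and 4.002 without CPVA5. With each control library left out in turn, it stayed between 2.72 and 3.89. It also moved with the pseudocount, to 4.24, 3.46, 4.29 and 3.12 with 0.01 and to 2.64, 2.62, 1.88 and 2.32 with 1. As the background for these values, the fit covered 19222 genes with limma and Benjamini-Hochberg adjustment, and 0 of them (0%) were called, where a call needs a limma adjusted p under 0.05 and a log2 fold change of 1 or more in size. Since the 4 genes were selected on this contrast, nothing is read from it about them. At an unadjusted limma p under 0.05 and the same fold change, 662 genes passed. The median difference over all 19222 genes was 0.08.

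With both CPVA2 and CPVA3 left out, the remaining difference had no common sign. It was 0.08 (standard error 0.41) for CD5L, -0.52 (0.54) for MARCO, 0.23 (0.36) for OLR1 and 0.15 (0.60) for DNASE1L3 on the same log2 scale. The 0.1 FPKM added before the log is above the mean of CD5L (0.0763) and OLR1 (0.0347) in these libraries. It is just below that of MARCO (0.113), so this scale shrinks the differences of these genes. In pooled reads scaled to the library totals, CPVA1, CPVA4 and CPVA5 had 1.28 times the control level of CD5L (interval 0.533 to 2.99), from 11 and 15 reads. The ratio was 0.437 for MARCO (0.146 to 1.10), from 6 and 24 reads. It was 2.25 for OLR1 (0.745 to 7.10), from 9 and 7 reads, and 1.24 for DNASE1L3 (0.793 to 1.93), from 37 and 52 reads. These intervals cover counting error only and leave out the spread between libraries, so no difference between the groups is read from them. Single libraries set these ratios, as leaving out each library in turn showed, an alternative chosen after the values were seen. The reads of OLR1 were 8 of 9 from CPVA5, without which its ratio was 0.388. Those of MARCO were 5 of 6 from CPVA5, without which its ratio was 0.113. Those of DNASE1L3 were 23 of 37 from CPVA4, without which its ratio was 0.691. The ratio of CD5L was 0.855 without CPVA4 and 0.983 without Control3. The highest ratios were 1.90 for CD5L and 0.647 for MARCO without CPVA1, 4.15 for OLR1 without Control2 and 1.78 for DNASE1L3 without CPVA5.

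Among the 8 libraries without CPVA2 and CPVA3, the 4 genes did not share their highest library. CPVA4 was highest for CD5L and DNASE1L3, Control2 for MARCO and CPVA5 for OLR1. CPVA5 held 8 of the 16 reads of OLR1 but 3 of the 89 reads of DNASE1L3, and CPVA4 held 23 reads of DNASE1L3 but 1 of MARCO. The variance of the reads between the 8 libraries was set against what counting at their depths gives. The factor was 1.93 for CD5L, 3.97 for MARCO, 3.59 for OLR1 and 5.16 for DNASE1L3. These factors have no interval or test, and that of CD5L rests on 26 reads. Neighbours in the order of the libraries had overlapping intervals for each gene. For CD5L, the interval of the highest library overlapped that of each of the 5 control libraries. For DNASE1L3, that of CPVA4 (0.623 to 1.47 FPKM) overlapped 2 of the 5, Control2 and Control4.

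**Figure D2:**
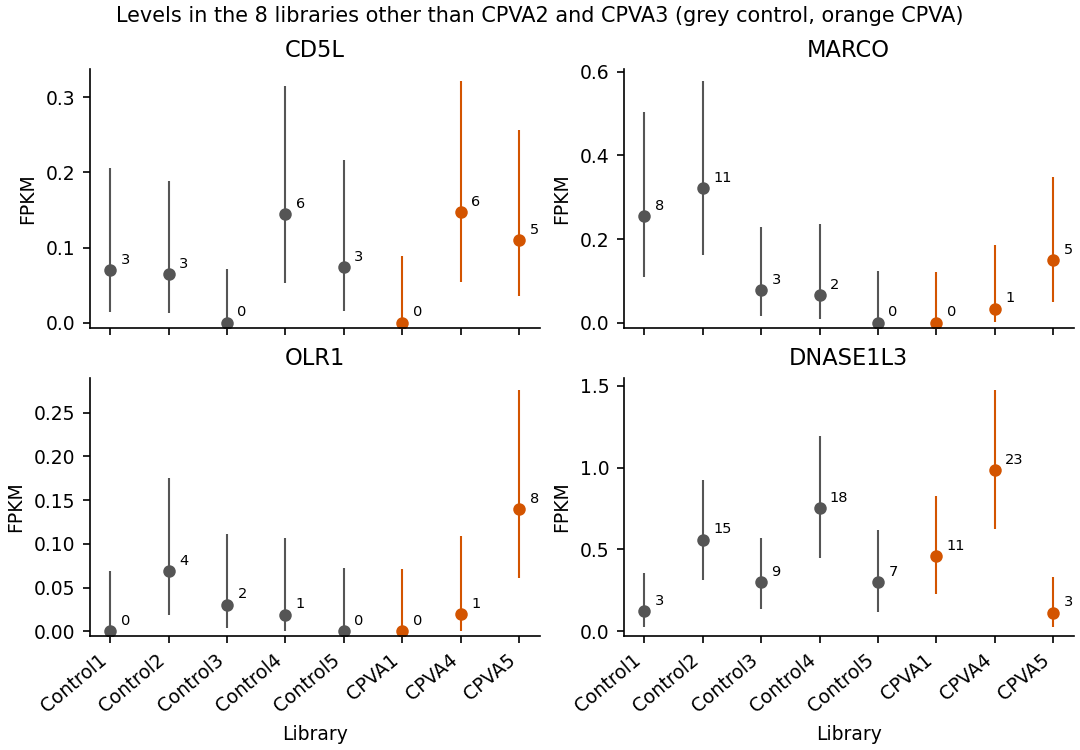
FPKM (linear axes) of each gene in the 5 control libraries (grey) and in CPVA1, CPVA4 and CPVA5 (orange), with exact 95% Poisson intervals as bars and the reads printed beside each point. The highest library differs between the panels, and most intervals overlap.

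Whether the genes rose together in these 8 libraries was tested on log2(FPKM + 0.1), by two-sided exact permutation of the pairings, adjusted over the 6 pairs of genes. MARCO and OLR1, the receptors, gave the highest Pearson r, 0.500 (exact permutation p = 0.207, adjusted p = 0.698; Spearman rho = 0.565, exact permutation p = 0.153, adjusted p = 0.830). Without Control1 and Control2, the libraries farthest from the median of MARCO, r of this pair was 0.905 over 6 libraries. This value was not tested and rests on few reads. Among the 6 libraries, CPVA5 had the most of both genes, with 5 reads of MARCO and 8 of OLR1. CD5L gave r = 0.152 with MARCO (exact permutation p = 0.715), 0.243 with OLR1 (p = 0.582) and 0.233 with DNASE1L3 (p = 0.567). DNASE1L3 gave r = -0.352 with MARCO (exact permutation p = 0.383) and -0.254 with OLR1 (p = 0.560). The adjusted p of the 6 pairs were 0.698 to 0.715 for r and 0.830 for rho, so no pair passed the threshold in either measure. The other values of rho were -0.114, 0.123 and 0.359 for CD5L with MARCO, OLR1 and DNASE1L3 (exact permutation p = 0.784, 0.774 and 0.379). For DNASE1L3 with MARCO and OLR1 they were -0.323 and -0.0976 (exact permutation p = 0.432 and 0.830). Leaving out the 2 libraries farthest from the median of the first gene changed the sign for CD5L with MARCO (r = -0.486) and for OLR1 with DNASE1L3 (r = 0.458). It gave 0.0715 for CD5L with OLR1, 0.529 for CD5L with DNASE1L3 and -0.441 for MARCO with DNASE1L3. All 4 genes were high in CPVA2 and CPVA3, but they were selected on the difference between the groups, so nothing is read from this. A joint rise of the 4 genes was not shown in the other 8 libraries. With at most 23 reads of a gene in each of these 8, the test could not exclude one there. When CPVA2 and CPVA3 are included, the 10 libraries fall into 2 separate clusters, and no r over all 10 is read.

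The levels of the 4 genes relative to each other were nearly the same in CPVA2 and CPVA3. In both, the order of FPKM was MARCO, CD5L, DNASE1L3, OLR1. As a share of the summed FPKM of the 4, MARCO took 37.5% in CPVA2 and 38.1% in CPVA3, CD5L 33.1% and 31.3%, DNASE1L3 21.7% and 22.6%, and OLR1 7.69% and 8.02%. MARCO was 1.72 times DNASE1L3 in CPVA2 (interval 1.60 to 1.86) and 1.68 times in CPVA3 (1.61 to 1.77). OLR1 was 0.354 of DNASE1L3 (0.322 to 0.389) and 0.355 (0.334 to 0.377).

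The other libraries had another order. DNASE1L3 led in 4 of the 5 control libraries and in CPVA1 and CPVA4, and MARCO led in Control1 and CPVA5. In the pooled control libraries, MARCO was 0.362 of DNASE1L3 (interval 0.214 to 0.599), CD5L was 0.166 (0.0868 to 0.299) and OLR1 was 0.0618 (0.0237 to 0.137). In the CPVA group without CPVA2 and CPVA3, pooled, these ratios were 0.127 (0.0439 to 0.304), 0.171 (0.0787 to 0.342) and 0.112 (0.0474 to 0.235). For all 3 genes, the intervals of both pooled sets lay below those of CPVA2 and of CPVA3. These ratios restate how much less DNASE1L3 differed between the libraries than the 3 genes did. All 4 were selected on the difference between the groups, so this is a description and nothing is read from it. The intervals cover counting error only and leave out the spread between the pooled libraries. Single libraries within these pools did not all follow. In CPVA5, which had 3 reads of DNASE1L3, MARCO was 1.31 times DNASE1L3 (0.255 to 8.43), CD5L 0.959 (0.187 to 6.17) and OLR1 1.22 (0.294 to 7.16). In Control1, also with 3 reads of DNASE1L3, MARCO was 2.09 times DNASE1L3 (0.503 to 12.3). Each of these intervals overlaps those of CPVA2 and CPVA3. Among the 3 genes themselves, CD5L was 0.824 of MARCO in CPVA3 (0.794 to 0.855), 0.884 in CPVA2 (0.835 to 0.935) and 0.458 in the pooled control libraries (0.223 to 0.909), where the interval overlaps both. MARCO was 4.75 times OLR1 in CPVA3 (4.50 to 5.00), 4.87 times in CPVA2 (4.49 to 5.29) and 5.87 times in the pooled control libraries (2.45 to 16.1). In CPVA1, CPVA4 and CPVA5 pooled, MARCO was 1.14 times OLR1 (0.334 to 3.59, from 6 and 9 reads), below the intervals of CPVA2 and CPVA3. CPVA5 gave 5 of these 6 reads of MARCO and 8 of the 9 of OLR1, so this ratio mainly shows CPVA5. In the same pool, CD5L was 1.34 times MARCO (0.455 to 4.42). The ratios in single control libraries rest on at most 18 reads of a gene.

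**Figure D3:**
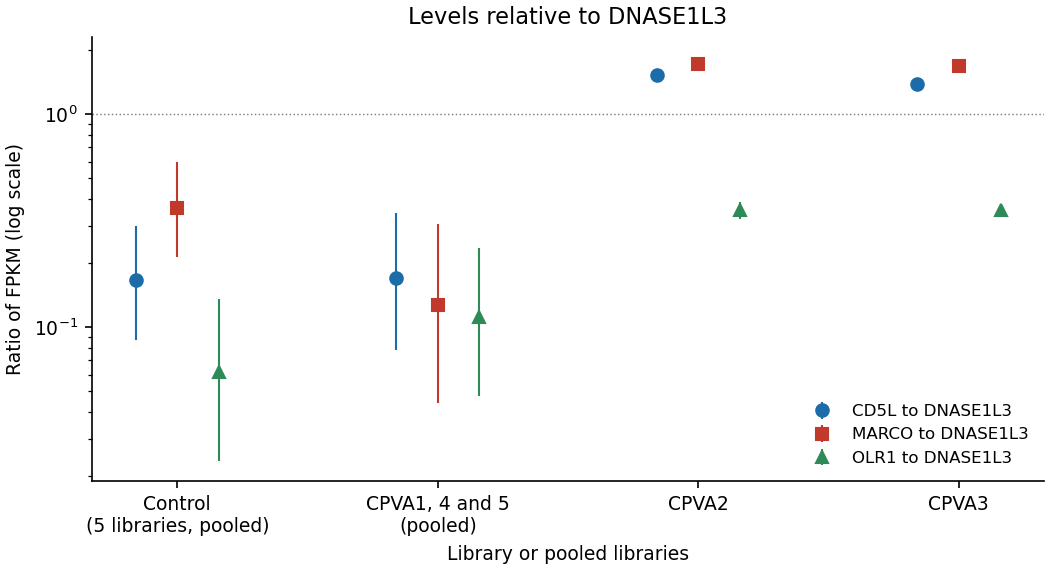
Ratio of the FPKM of CD5L, MARCO and OLR1 to that of DNASE1L3 (log axis) in the pooled control libraries, in CPVA1, CPVA4 and CPVA5 pooled, in CPVA2 and in CPVA3, with exact 95% binomial intervals as bars. The ratio for MARCO is 1.72 in CPVA2 and 1.68 in CPVA3, against 0.362 in the pooled control libraries. The genes were selected on the difference between the groups, so this is a description only.

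CPVA2 held about the same share of the CPVA3 level for each of the 4 genes. This share was 0.263 for CD5L (interval 0.251 to 0.275), 0.245 for MARCO (0.233 to 0.257), 0.239 for DNASE1L3 (0.222 to 0.257) and 0.2385 for OLR1 (0.219 to 0.259). Fisher's exact test on the reads of each pair of genes compares these 2 libraries, not the conditions. CD5L was higher in CPVA2 relative to MARCO by a factor of 1.07 (interval 1.003 to 1.15), to OLR1 by 1.10 (1.0007 to 1.21) and to DNASE1L3 by 1.10 (1.007 to 1.20). These 3 intervals lay just above 1. In Fisher's exact test the unadjusted p of these pairs were 0.0412, 0.0468 and 0.0326, and each had an adjusted p of 0.0935 over the 6 pairs. The pairs without CD5L had factors of 0.998 to 1.03 and adjusted p of 0.726 to 0.977 in Fisher's exact test, with intervals from 0.892 to 1.13 in all. No pair passed the threshold, and a shift of more than about 1.21 lies outside all 6 intervals. Why the 4 genes stood in nearly the same ratio in these 2 libraries was not tested.

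Set against all genes, this share was low. Of 10925 genes with at least 100 reads in both libraries, the median ratio of CPVA2 to CPVA3 was 0.854 (quartiles 0.673 and 1.06), and 25 genes, 0.229%, were below OLR1, the lowest of the 4. Between the lowest and the highest of the 4 lay 85 genes, 0.778%. Of the 16 other genes in the study's list, 14 were highest in CPVA3, and their ratio ran from 0.209 to 0.317 with a median of 0.255, which includes the range of the 4 genes. They include IL1RL1, a cytokine receptor, with 0.265, and CSF3, a growth factor of granulocytes, with 0.209. The 2 exceptions, NDST4 and SPOCK3, were highest in CPVA5.

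**Figure D4:**
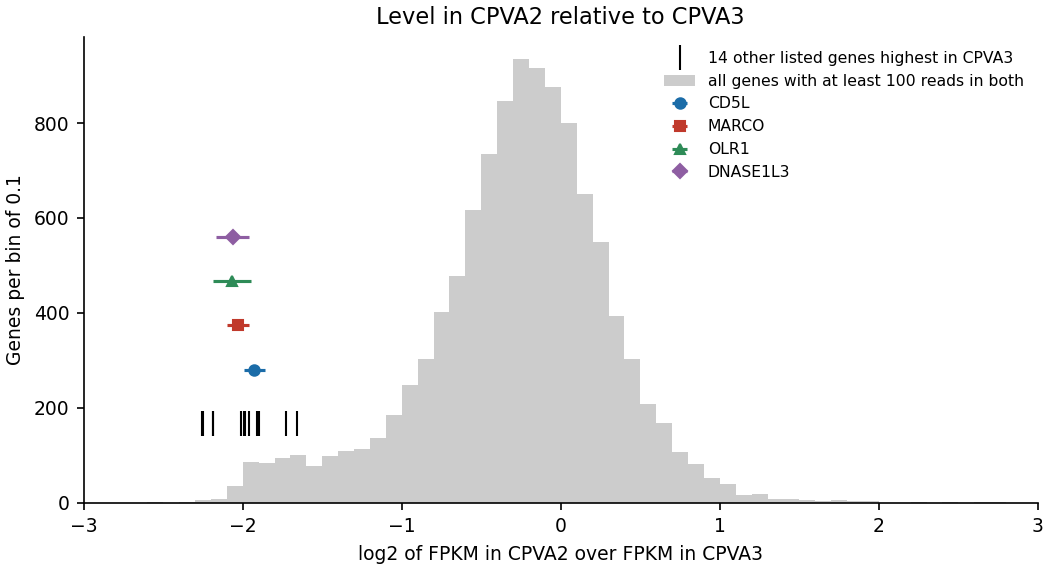
Histogram of the log2 ratio of FPKM in CPVA2 to CPVA3 over 10925 genes with at least 100 reads in both libraries, with the 4 genes as symbols (bars: exact 95% binomial intervals) and 14 other listed genes as ticks, at arbitrary heights. The 4 genes lie at the left edge of the histogram, beside a shoulder of other genes, with ratios of 0.2385 to 0.263 against a median of 0.854.

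CPVA2 and CPVA3 were both above each of the other 8 libraries for all 4 genes, and for 3261 of the 19222 genes with a mean of at least 0.1 FPKM (17.0%). Both were more than 10 times each of the other 8 for all 4 genes and for 10 of the 16 other listed genes, against 116 genes in all (0.603%). The list was selected on this contrast, so nothing is read from the count of the 4 genes. Of those 116 genes, 102 are not in the list and carry no symbol. Over all 102, the ratio of CPVA2 to CPVA3 ran from 0.0269 to 2.32 with a median of 0.271, and 97 were higher in CPVA3. Among them, the 39 with at least 100 reads in CPVA2 had a median ratio of CPVA2 to CPVA3 of 0.259, between 0.208 and 0.335, and each was higher in CPVA3.

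The profile most like the mean of the standardised profiles of the 4 genes was sought among 14100 genes with a mean of at least 1 FPKM outside the list. By Pearson r on log2(FPKM + 0.1) over the 10 libraries, it was that of ENSCAFG00000046041, with r = 0.993. This gene had 9.07 FPKM in CPVA3 and 1.95 in CPVA2, from 44 and 16 reads, and 0 reads in the other 8 libraries. ENSCAFG00000015000 followed with r = 0.989, and had 28.2 FPKM in CPVA3, 7.31 in CPVA2 and 0.386 to 0.916 elsewhere. The most opposite profiles were those of ENSCAFG00000007869 (r = -0.940), with 2.55 FPKM in CPVA3, 3.22 in CPVA2 and 3.85 to 4.68 elsewhere, and of ENSCAFG00000015836 (r = -0.921), with 94.4, 115 and 125 to 144 FPKM. An r over 0.95 was found for 122 of the 14100 genes and for 13 of the 16 other listed genes. The other listed genes were EREG at 0.866, SPOCK3 at 0.595 and NDST4 at 0.300. These r mainly tell CPVA2 and CPVA3 from the rest. The listed genes were selected on the difference between the groups, so nothing is read from their count. Over the other 8 libraries, r with the same mean profile was taken for the 15 listed genes with reads there. It lay between 0.101 for CTSE, a protease, and 0.821 for CSF3. None was over 0.95, and only 23 of 14098 unlisted genes were, so nothing is read from this either. There, the highest r among the unlisted genes was 0.990.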

How the data were processed

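RNA-seq of atrial tissue from 5 CPVA and 5 control beagles was analysed; each of the 10 columns was matched to a sample by name. The authors deposited FPKM, 1 value per gene and library; per the submitters' processing notes, CASAVA, HISAT2, featureCounts and the build CanFam3.1 were used (tool versions are not given in the sources used here), and the methods name DESeq2, which was not run here: the test was set for the deposited FPKM. Whole reads, gene lengths and library totals (15120163 to 25592249 reads) were worked out from the steps between values, which gave whole reads for all 27638 genes with reads and at least 99.9976% of each library total, with values within 0.0001 of a whole read; this was tested on simulated data. These reads served for intervals and ratios only. Log2(FPKM + 0.1) was fitted with limma 3.58.1 (R 4.3.3, eBayes with trend, Benjamini-Hochberg) for genes with a mean of at least 0.1 FPKM; permutation, Fisher and exact intervals used scipy 1.17.1 in Python 3.11.15.

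The members, lists and tests were chosen with earlier results of these data known. Symbols came from the study's supplementary list. By rule, the text names the 4 members, other listed genes where a result turns on them, and the 2 genes most like and most unlike; the most alike over 8 libraries are not named, since RefSeq (UU_Cfam_GSD_1.0) paired 0 identifiers with symbols. For that reason lists of cell type markers, scavenger receptors, lipid handling genes and DNases were not used. The limit of 10 times was set after the values were seen. No columns held identical values. The labels give 1 library per sample and do not state the animal, so p-values of limma and of the permutation test measure only the spread between these samples. Those of Fisher's exact test measure only counting error of the reads in CPVA2 and CPVA3. Alternatives covered the pseudocount, the filter, scaling, the replicate block and left-out libraries.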

Additional observations from a re-analysis of the deposited data

Results flagged for a closer look

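In the CPVA group, CPVA3 lay apart from the other 4 libraries on linear FPKM for each of the 4 genes. The gap between CPVA3 and CPVA2 was 0.737 of the range of the group for CD5L, 0.755 for MARCO, 0.761 for OLR1 and 0.762 for DNASE1L3, each above 0.71, which Dixon's table sets as the 95% limit for groups of 5. Of 8 groups of libraries tested, 4 were past this value. These 4 results share CPVA3 as the highest library, so they are not separate. The genes were selected on this contrast, so the 95% limit does not hold for them, and these results count as no evidence. On log2(FPKM + 0.1), 0 of the 4 CPVA groups were past it.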

How the results depend on the processing

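The number of genes called between CPVA and control was 0. It was 1 with a pseudocount of 0.01 and with median-of-ratios scaling, 3 with CPVA2 and CPVA3 both left out, and 0 to 4 with each library left out in turn, with 4 genes without CPVA1, 3 without Control4, 2 without CPVA3 and 1 each without Control1, Control3 and CPVA5. Each of these counts is out of 19222 genes. The 4 members were selected on this contrast, so nothing is read from their absence among the calls. Why the count varied was not tested. With the replicate number as a block it was 0, and 589 genes passed at an unadjusted p against 662 without the block. Same-numbered libraries had correlations of -0.198 to 0.0893 in their deviations from the group means. The largest with a library of another number were 0.101 to 0.259. This check showed no pairing by number but cannot exclude it.

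With median-of-ratios scaling, the share of the CPVA3 level in CPVA2 was 0.302 for CD5L, 0.281 for MARCO, 0.274 for OLR1 and 0.274 for DNASE1L3, since this scaling raises all 4 by the same factor. The number of correlated pairs was 0 of 6 in each alternative but one: it was 6 with all 10 libraries, where CPVA2 and CPVA3 set r. Signs of r changed for CD5L with MARCO (-0.114 as Spearman rho, -0.0500 in the 5 control libraries, and from -0.168 without CPVA1 to 0.303 without CPVA4), CD5L with OLR1 (-0.222 in the control libraries), CD5L with DNASE1L3 (from -0.0246 without CPVA4 to 0.461 without CPVA5), MARCO with DNASE1L3 (0.942 with all 10 libraries) and OLR1 with DNASE1L3 (0.957 with all 10, 0.587 in the control libraries, and from -0.531 without Control1 to 0.401 without CPVA5). Dividing all reads by 10 kept 0 of 6 read ratios past the threshold. Depth limits each value outside CPVA2 and CPVA3, where a gene had at most 23 reads.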
